A study of Mus musculus with 16 samples.

Results

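Cd80, Cd274, Cd276, Pvr and Nectin2 encode membrane proteins through which a cell signals to T cells and natural killer (NK) cells. The rows with these symbols were taken from the table of gene counts, and all 5 were among its 14474 genes. They were selected on their levels, as normalized read counts scaled to library size (CPM), across the 4 groups of the study, so their levels and differences are given as a description, with no p-value. Whether they pass the threshold used for all genes is only counted beside the share of all genes that do, and nothing is read from it. Where libraries of compared groups do not overlap, the share of all genes for which this holds was not counted. Nothing is read from that either. The cells were immortalized mouse keratinocytes lacking the α3 integrin subunit (MKα3-), and the same cells reconstituted with human α3 integrin (MKα3+). Both lines are therefore described as lacking mouse α3, and as differing by the human subunit. LN332 (laminin-332), a basement membrane protein and a ligand of integrin α3β1, was added at 0.02 mg/mL for 16 to 24 h, and control cells received an equal volume of its vehicle, which holds PBS, glycine and NaN3. Each of the 4 groups (MKα3- or MKα3+ cells, vehicle or LN332) had 4 replicates, giving 16 libraries of poly(A)-selected RNA. The study describes its in vitro data points as experimental replicates, but the sources do not say whether these came from separate cultures, so p-values measure the spread between these samples, which may be technical. The comparisons ask which of these genes differ with α3 and which differ with LN332.

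T cells need a second signal beside antigen, and CD80 gives it by binding CD28, whereas binding to CTLA-4 restrains the cell. PD-L1, encoded by Cd274, binds the inhibitory receptor PD-1 and is induced by interferon-γ through JAK kinases in many cell types, keratinocytes included. B7-H3, encoded by Cd276, belongs to the same B7 family. PVR (CD155) and nectin-2 (CD112) belong to the nectin and nectin-like family of adhesion molecules, and both bind the activating receptor CD226 and the inhibitory receptor TIGIT.

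Total counts per library were between 21735708 and 29338370, and the lowest was MKα3- LN332 replicate 4. At this depth the 5 genes rested on between 573 counts (Cd80) and 6009 counts (Cd276) in a library. The 8 basal keratinocyte markers examined were all measured, with summed levels between 8635 and 19007 CPM. In vehicle, 0 of the 8 passed the threshold for all genes as higher in MKα3+ cells, and 2 as lower. These 2 were Krt15 (log2 fold change -2.64) and Perp (-0.70). In LN332, 1 passed as higher, Cdh1 (0.82), and 3 as lower, Krt5 (-0.80), Trp63 (-0.91) and Perp (-0.78). Of all genes, 18.5% passed in vehicle and 20.6% in LN332. Itga3, the gene of the α3 subunit, was counted in every library (between 4530 and 8830 counts) and did not distinguish the lines. Counts over the whole gene thus do not show the deletion in the cells labelled as lacking α3, and which exons were removed is not given in the sources used here, so these counts do not check the labels. The restored subunit is human, and reads were mapped to the mouse genome. Of 21 leukocyte markers 12 were in the table. Their summed level was between 62.9 and 117 CPM in vehicle and between 75.8 and 129 CPM in LN332 in MKα3- cells, and between 153 and 463 CPM in vehicle and between 122 and 474 CPM in LN332 in MKα3+ cells. MKα3+ vehicle replicates 3 and 4 and MKα3+ LN332 replicate 4 were the highest, with Lyz2, a lysozyme of myeloid cells, at up to 237 CPM and Adgre1, a macrophage receptor, at up to 35.2 CPM. Cd3e, Cd3g, Cd4, Cd8a, Ms4a1, Nkg7, Itgax and Cd207 were among the markers that the table did not list. The summed level of 7 measured fibroblast, endothelial and melanocyte markers was between 17.4 and 44.9 CPM.

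In the mouse genome build GRCm38.p6 (mm10), Cd80 (Entrez 12519) lies on the plus strand of chromosome 16 from 38457430 to 38495958, and Cd274 (Entrez 60533) on the plus strand of chromosome 19 from 29362107 to 29388095. Cd276 (Entrez 102657) lies on the minus strand of chromosome 9 from 58524300 to 58555033. Nectin2 (Entrez 19294), from 19716644 to 19749573, and Pvr (Entrez 52118), from 19903578 to 19921143, lie 154 kb apart on the minus strand of chromosome 7. The counts are of reads over exons. Exons of Cd274, Cd276 and Nectin2 overlap exons of an annotated transcript on the opposite strand by 511, 416 and 135 bases, and the strand setting of the counting was not stated, so reads of the partners cannot be told apart there. The promoters of the B7 genes that differed in level between groups are shown as RefSeq gives them on GRCm38.p6, so that their letters can be read beside the values. Each window runs from 250 bases before a transcript start to 50 bases after it. For Cd80 and Cd274 that transcript start lies inside the gene span given above, past its first base. Capitals mark the motifs found. Cd80 is chr16:38458683-38458982 and Cd274 is chr19:29367188-29367487, both on the plus strand.
Cd80: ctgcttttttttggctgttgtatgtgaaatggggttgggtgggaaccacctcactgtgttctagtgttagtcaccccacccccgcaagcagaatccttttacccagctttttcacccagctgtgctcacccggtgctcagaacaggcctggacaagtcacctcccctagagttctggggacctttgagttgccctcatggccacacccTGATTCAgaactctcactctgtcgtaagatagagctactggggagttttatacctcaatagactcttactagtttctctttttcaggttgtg
Cd274: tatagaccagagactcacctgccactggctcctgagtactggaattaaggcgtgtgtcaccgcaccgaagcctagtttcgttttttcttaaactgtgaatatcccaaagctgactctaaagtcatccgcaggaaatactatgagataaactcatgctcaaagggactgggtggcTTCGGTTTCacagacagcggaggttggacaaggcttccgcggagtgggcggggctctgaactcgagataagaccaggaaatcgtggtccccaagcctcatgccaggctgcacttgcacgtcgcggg
The motifs searched on both strands were GAS (TTCNNNGAA), an ISRE core (GAAANNGAA), AP-1 (TGANTCA), TEAD (GGAATG) and NF-kB by name. The Cd80 window held an AP-1 motif, which reads the same on either strand for this pattern, at bases -42 to -36 from the transcript start. The Cd274 window held an ISRE core on the minus strand at bases -76 to -68 from its transcript start. Of 32851 promoters of the same length, 7.81% held the AP-1 motif, 8.56% the ISRE core, 8.30% GAS, 8.46% NF-kB and 14.7% TEAD. The windows of Cd276 and Nectin2 held none of these letters. Pvr had no promoter entry in the sources used here and was not searched. A match describes the letters and is not evidence of a bound site.

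Cd80, the costimulatory ligand, was highest in MKα3+ cells given LN332. In vehicle-treated MKα3+ cells the 4 libraries had 33.8, 37.8, 34.0 and 33.8 CPM, and in LN332-treated MKα3+ cells they had 63.1, 63.4, 56.5 and 59.1 CPM. In MKα3- cells the values were 37.8, 28.0, 37.7 and 29.7 CPM in vehicle and 48.2, 40.8, 55.6 and 28.0 CPM in LN332. The 4 LN332-treated MKα3+ libraries lay above every other library, while the remaining 3 groups overlapped one another. The means were 33.3 ± 5.15 CPM in MKα3- vehicle, 34.9 ± 1.99 CPM in MKα3+ vehicle, 43.2 ± 11.8 CPM in MKα3- LN332 and 60.5 ± 3.29 CPM in MKα3+ LN332 (SD, n = 4), and only the step between the last of these neighbours was wider than the spread of the libraries. The fitted log2 fold change of LN332 against vehicle was 0.80 (SE 0.16, 95% interval 0.47 to 1.12) in MKα3+ cells and 0.35 (SE 0.16, 95% interval 0.02 to 0.69) in MKα3- cells. The responses differed by 0.44, with a 95% interval of -0.03 to 0.91. With libraries taken by replicate number, the log2 ratio of LN332 to vehicle was 0.90, 0.74, 0.73 and 0.81 in MKα3+ cells and 0.35, 0.54, 0.56 and -0.09 in MKα3- cells. The low ratio belongs to MKα3- LN332 replicate 4, and without that library the MKα3- response was 0.53. Without MKα3- LN332 replicate 3 it was 0.22. The difference of the responses was 0.26 without replicate 4 and 0.58 without replicate 3 of that group. Between the lines, Cd80 differed by a log2 fold change of 0.08 (SE 0.16) in vehicle and 0.52 (SE 0.15) in LN332. The latter was 0.33 without MKα3- LN332 replicate 4 and 0.65 without MKα3- LN332 replicate 3. RNA was taken from whole cultures, in which more cells with the transcript and more transcript per cell cannot be told apart.

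**Figure D1:**
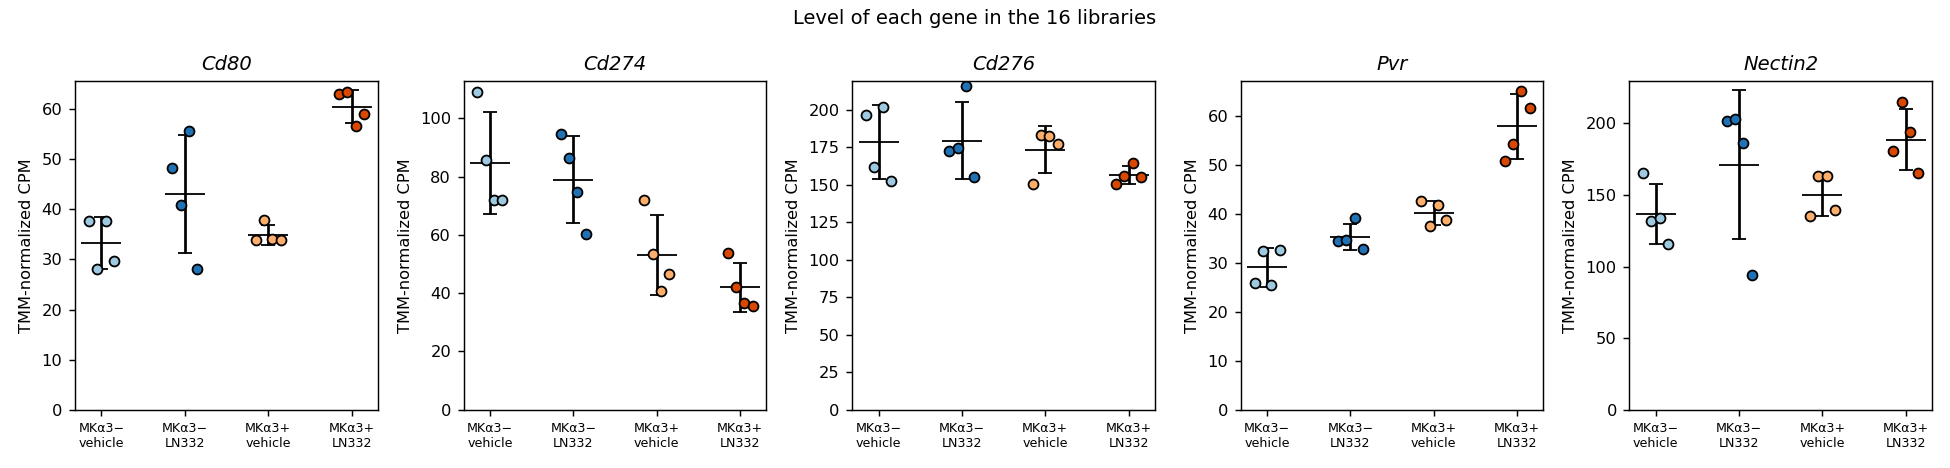
TMM-normalized CPM (vertical axes, from 0) of the 5 genes in the 4 groups (horizontal axes). Points are libraries, with replicates 1 to 4 from left to right, long marks are means and bars are ± SD (n = 4). The 4 LN332-treated MKα3+ libraries lie above every other library for Cd80 (at least 56.5 CPM) and for Pvr (at least 50.8 CPM).

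Cd274, the gene of PD-L1, was lower in MKα3+ than in MKα3- cells. Its libraries had 109, 85.9, 72.0 and 72.2 CPM in MKα3- vehicle and 94.8, 86.5, 74.7 and 60.2 CPM in MKα3- LN332. They had 72.1, 53.4, 40.6 and 46.6 CPM in MKα3+ vehicle and 53.7, 42.1, 36.7 and 35.5 CPM in MKα3+ LN332. With LN332 the lines did not overlap, whereas in vehicle MKα3+ replicate 1 reached the lower MKα3- libraries. The log2 fold change of MKα3+ against MKα3- cells was -0.68 (SE 0.19) in vehicle and -0.91 (SE 0.19) in LN332. The order of means ran from 42.0 ± 8.32 CPM in MKα3+ LN332 through 53.2 ± 13.7 CPM in MKα3+ vehicle and 79.0 ± 15.0 CPM in MKα3- LN332 to 84.8 ± 17.4 CPM in MKα3- vehicle (SD, n = 4), and neighbours in this order overlapped. LN332 differed from vehicle by a log2 fold change of -0.33 (SE 0.19) in MKα3+ and -0.10 (SE 0.18) in MKα3- cells, with 95% intervals of -0.73 to 0.07 and -0.49 to 0.29. By replicate number, its log2 ratio of LN332 to vehicle was -0.43, -0.34, -0.15 and -0.39 in MKα3+ cells and -0.20, 0.01, 0.05 and -0.26 in MKα3- cells. It was thus below 0 in all 4 MKα3+ pairs and in 2 of 4 MKα3- pairs.

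Cd276, the gene of B7-H3, differed least between the groups. Its levels were between 152 and 202 CPM in MKα3- vehicle, 155 and 216 CPM in MKα3- LN332, 150 and 183 CPM in MKα3+ vehicle, and 150 and 164 CPM in MKα3+ LN332. All groups overlapped, and the log2 fold changes in the 4 comparisons were between -0.19 and 0.01 (SE 0.11).

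Pvr, the gene of CD155, was higher in MKα3+ than in MKα3- cells and higher with LN332 than with vehicle in both lines. The libraries had 25.9, 32.5, 25.5 and 32.6 CPM in MKα3- vehicle and 34.6, 34.6, 39.2 and 32.8 CPM in MKα3- LN332. They had 42.6, 37.6, 41.9 and 38.7 CPM in MKα3+ vehicle and 50.8, 54.3, 65.2 and 61.8 CPM in MKα3+ LN332. The compared groups did not overlap in any of the 4 comparisons, although in MKα3- cells the closest libraries with and without LN332 were 32.8 and 32.6 CPM. The means were 29.1 ± 3.96, 35.3 ± 2.73, 40.2 ± 2.42 and 58.0 ± 6.64 CPM in the same order of groups (SD, n = 4). Of the neighbours in this order, the libraries of MKα3- LN332 and MKα3+ vehicle overlapped. The mean ± SD ranges of MKα3- vehicle and MKα3- LN332 overlapped as well. The log2 fold change of MKα3+ against MKα3- cells was 0.47 (SE 0.11) in vehicle and 0.71 (SE 0.11) in LN332. With LN332 it was 0.52 (SE 0.10) in MKα3+ cells and 0.29 (SE 0.11) in MKα3- cells. The responses differed by 0.24 (SE 0.15), with a 95% interval of -0.08 to 0.55. Taken by replicate number, the log2 ratio of LN332 to vehicle was 0.25, 0.53, 0.64 and 0.67 in MKα3+ cells. In MKα3- cells it was 0.42, 0.09, 0.62 and 0.01.

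Nectin2, the gene of CD112, showed a wider spread. Its libraries had 165, 132, 134 and 116 CPM in MKα3- vehicle and 201, 203, 186 and 93.9 CPM in MKα3- LN332. They had 135, 163, 163 and 140 CPM in MKα3+ vehicle and 181, 215, 194 and 165 CPM in MKα3+ LN332. MKα3- LN332 replicate 4 stood far below its group, and in MKα3+ cells the libraries with LN332 lay above those with vehicle. The log2 fold change with LN332 was 0.33 (SE 0.19) in MKα3+ and 0.26 (SE 0.19) in MKα3- cells. Without MKα3- LN332 replicate 4 the latter was 0.53, and the log2 fold change of MKα3+ against MKα3- cells in LN332 moved from 0.21 to -0.07.

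**Figure D2:**
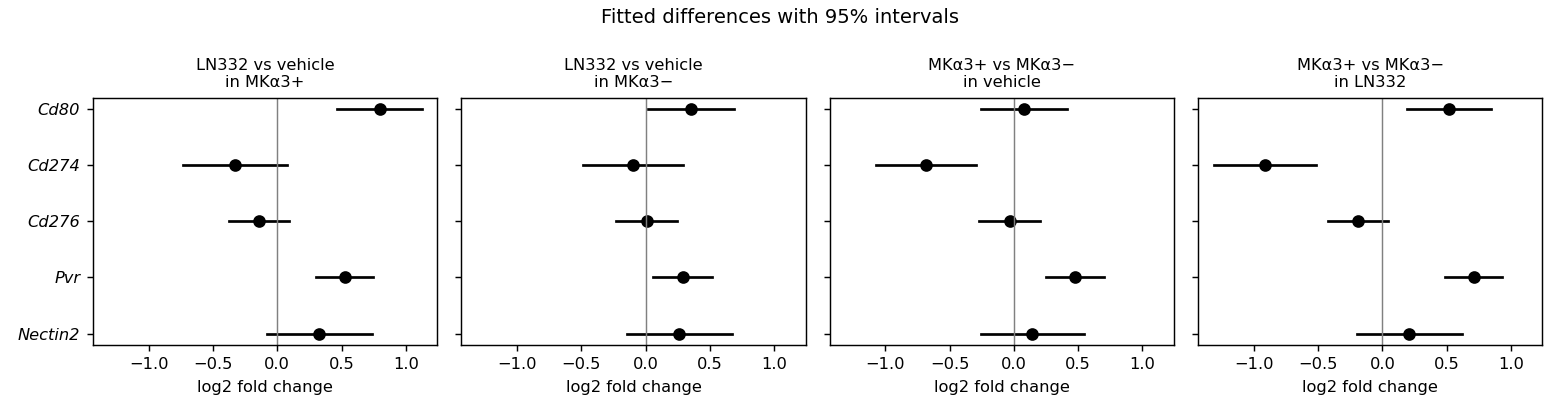
Log2 fold changes (horizontal axes) of the 5 genes in 4 comparisons (panels), with 95% intervals (bars) from the fit over 16 libraries. The interval of Cd80 with LN332 in MKα3+ cells runs from 0.47 to 1.12, and those of Cd276 include 0 in every panel.

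Levels were compared between genes per kilobase of merged exons. In MKα3- vehicle the order was Cd276 (49.4 CPM per kb), Nectin2 (39.7), Cd274 (23.4), Pvr (10.0) and Cd80 (8.99 CPM per kb). In MKα3+ LN332 it was Nectin2 (54.8 CPM per kb), Cd276 (43.4), Pvr (19.97), Cd80 (16.3) and Cd274 (11.6 CPM per kb). Cd274 thus stood above Cd80 in the first group and below it in the second. The place of Pvr depended on the exons counted, which are those of the basic transcript set. Over the exons of all annotated transcripts, a length added after the levels were seen, Pvr had 9.48 CPM per kb in MKα3+ LN332, below Cd274 and Cd80.

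Genes were called where limma-voom gave an absolute log2 fold change over 0.5 and a p-value, adjusted after Benjamini and Hochberg, under 0.05. Between the lines in vehicle, 18.5% of all 14474 genes were called (10.9% higher and 7.56% lower in MKα3+ cells), and of the 5 genes 1 was called, Cd274. In LN332, 20.6% of all genes were called (11.7% higher, 8.92% lower), and 3 of the 5, Cd80, Pvr and Cd274. With LN332 in MKα3+ cells, 0.187% of all genes were called (0.173% higher), and 2 of the 5, Cd80 and Pvr. With LN332 in MKα3- cells 0.304% were called, and 0 of the 5. For the difference of the responses 0% were called, and 0 of the 5, while 164 genes had an unadjusted p under 0.05 in limma-voom, 168 in edgeR and 207 in DESeq2, with 0 called in each. With the replicate number as a block, 517 genes had such a p and 0 were called. The genes were selected on these levels, so nothing is read from their counts. The 4 comparisons share groups, so they are not independent. The count of the 5 that passed depended on the setting. With LN332 in MKα3+ cells it was 0 with edgeR, with library size alone and without the 3 libraries highest in leukocyte markers, and between 0 and 2 when 1 library at a time was omitted. Over those 16 fits the log2 fold changes ran from 0.77 to 0.84 for Cd80 and from 0.46 to 0.59 for Pvr. Both passed only without MKα3- vehicle replicate 1 or MKα3- LN332 replicate 1 or 4, with Cd80 also passing without MKα3- LN332 replicate 3 and Pvr without MKα3+ LN332 replicate 1. Between the lines in LN332, Cd80 passed in 5 of 10 other settings, of which no filter repeats the main fit. Cd80 did not pass with edgeR, DESeq2, quality weights, only the 2 groups compared or without the 3 libraries highest in leukocyte markers. It passed in 12 of 16 fits with 1 library omitted (0.33 to 0.65), not without MKα3- LN332 replicate 2 or 4 or MKα3+ LN332 replicate 1 or 2. Pvr between the lines in vehicle was under the minimum at 0.47 and over it without MKα3- vehicle replicate 2 or 4 or MKα3+ vehicle replicate 2, at up to 0.53. The replicate number pairs the libraries of the LN332 comparison in MKα3+ cells. With it as a block, shared by all 16 libraries of the fit, 1.51% of all genes were called in that comparison, and Cd80 (0.80) and Pvr (0.52) were among them.

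Leukocytes express Cd80 and Cd274, so the markers were set beside these genes. In MKα3+ vehicle, Cd80 was 34.0 and 33.8 CPM in replicates 3 and 4, which were high in leukocyte markers, and 33.8 and 37.8 CPM in replicates 1 and 2. The lowest marker sum among LN332-treated MKα3+ libraries, 122 CPM in replicate 1, came with 63.1 CPM of Cd80. That library had 4.50 CPM of Lyz2 and 0.924 CPM of Adgre1. In MKα3- cells the library with the highest marker sum also had the highest Cd80 of its group, with 129 CPM of markers and 55.6 CPM of Cd80 in LN332 replicate 3, and 117 CPM of markers and 37.8 CPM of Cd80 in vehicle replicate 1. The lowest marker sums there came with Cd80 below that of the library highest in markers and above that of the other libraries of the group. They were 62.9 CPM in vehicle replicate 3, with 37.7 CPM of Cd80, and 75.8 CPM in LN332 replicate 1, with 48.2 CPM of Cd80. The part of these markers in the level of Cd80 was not tested. Of the 12 measured leukocyte markers, 7 were called higher in MKα3+ cells in vehicle and 4 in LN332 (limma-voom), beside 10.9% and 11.7% of all genes. The 4 in LN332 were Csf1r, Cd74, H2-Aa and H2-Ab1. Between the lines, Lyz2 was called in vehicle only, and Adgre1 in neither treatment. With LN332, 0 were called in MKα3+ or MKα3- cells, beside 0.187% and 0.304% of all genes. Without the 3 libraries highest in these markers, a setting added after the data were seen, Cd80 with LN332 in MKα3+ cells was 0.77 (log2) and Pvr 0.49, with 0 genes called in that comparison. This setting removes replicates 3 and 4 of MKα3+ vehicle and replicate 4 of MKα3+ LN332, so both groups hold fewer libraries. Wherever it lost a call, fewer libraries and lower markers cannot be told apart. Within each treatment of MKα3+ cells, Cd274 was lowest in the libraries highest in these markers, at 40.6 and 46.6 CPM in vehicle and 35.5 CPM in LN332. In MKα3- vehicle it was lowest in replicates 3 and 4 (72.0 and 72.2 CPM), whose marker sums were the lowest there (62.9 and 70.0 CPM). Replicate 1 had the highest Cd274 in every group, so markers and replicate number cannot be told apart. Omitting the 3 libraries highest in these markers left its log2 fold change between the lines at -0.43 in vehicle, then under the minimum fold, and -0.84 in LN332.

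**Figure D3:**
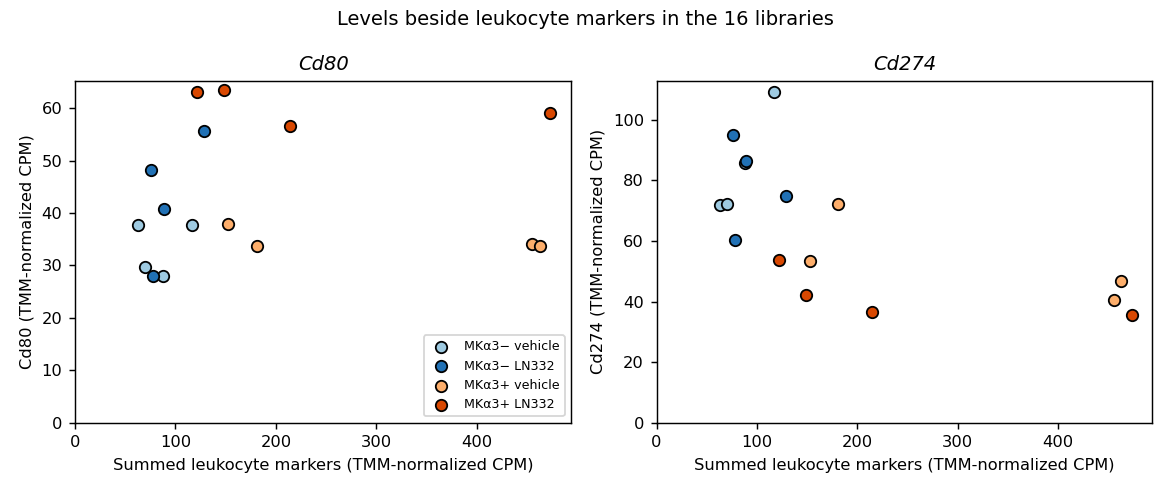
TMM-normalized CPM of Cd80 (left) and Cd274 (right) on the vertical axes against the summed CPM of 12 leukocyte markers on the horizontal axes, for 16 libraries colored by group. LN332-treated MKα3+ libraries keep Cd80 between 56.5 and 63.4 CPM while their marker sums run from 122 to 474 CPM.

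Of 27 other checkpoint and costimulatory ligands, 15 were in the table. Cd86, the closest relative of Cd80, and Pdcd1lg2, the second ligand of PD-1, were not among them. In vehicle 2 were called higher and 3 lower in MKα3+ cells, and in LN332 2 higher and 5 lower, beside 10.9% and 7.56% of all genes in vehicle and 11.7% and 8.92% in LN332. The list medians were 0.03 and -0.20 (log2), beside 0.01 for all genes in both. H2-T23, which presents peptide to the inhibitory receptor NKG2A, was lower in MKα3+ cells. Its log2 fold change was -3.34 (SE 0.26, adjusted p = 4.46e-08, limma-voom) in vehicle, from 208 ± 63.5 to 20.2 ± 4.46 CPM (SD, n = 4), and -3.41 (adjusted p = 5.14e-08, limma-voom) in LN332. H2-T23 has near-identical relatives in the MHC class I family, so its counts are uncertain. Raet1e, a ligand of the NK receptor NKG2D, was lower, at a log2 fold change of -0.86 (adjusted p = 0.0306, limma-voom) in vehicle and -1.33 (adjusted p = 0.00494) in LN332, from a low level of 3.86 CPM in MKα3- vehicle. Its exons overlap those of H60b and Raet1d on the same strand, and its call in vehicle held in 11 of 16 fits with 1 library omitted (-0.96 to -0.74). Tnfsf9, the ligand of 4-1BB, was lower, at -0.65 in vehicle (adjusted p = 0.0163, limma-voom), and the call was lost (estimates down to -0.55) without MKα3- vehicle replicate 3 or MKα3+ vehicle replicate 4. In LN332 it was -0.59 (adjusted p = 0.0328, limma-voom), called in 11 of 16 such fits (-0.79 to -0.45). Cd200, whose receptor restrains myeloid cells, was lower in LN332, at -1.09 (adjusted p = 0.00386, limma-voom), as was Tnfrsf14, the ligand of BTLA, at -0.74 (adjusted p = 0.00778). In vehicle these genes were at -0.66 and -0.49 (adjusted p = 0.110 and 0.0308, limma-voom), and neither was called. Icosl, the ICOS ligand, and Btn2a2, a butyrophilin, named after their values were seen, were the ligands higher in MKα3+ cells, by 1.72 and 2.33 in vehicle from 0.583 and 0.531 CPM. Without the 3 libraries highest in leukocyte markers, Raet1e (-0.65) and Tnfsf9 (-0.64) in vehicle were not called, nor was Tnfsf9 (-0.59) in LN332, while H2-T23 stayed at -3.26 in vehicle.

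The nectin list held 9 genes, of which 6 were measured. In vehicle 2 were called higher and 0 lower in MKα3+ cells, and in LN332 2 higher and 1 lower, beside 18.5% and 20.6% of all genes called in either direction. The list medians were 0.47 and 0.43 (log2), beside 0.01 for all genes. Nectin3, an adhesion partner that binds nectin-2 and CD155, was higher by 0.79 in vehicle (SE 0.14, adjusted p = 4.43e-04, limma-voom), from 10.9 ± 1.94 to 18.5 ± 1.09 CPM (SD, n = 4), and by 0.98 in LN332 (adjusted p = 4.41e-05). Cadm4, a nectin-like molecule, was higher in vehicle by 0.55 (adjusted p = 0.00110, limma-voom), and the call was lost without MKα3- vehicle replicate 4 or MKα3+ vehicle replicate 1 (down to 0.48). Afdn, afadin, the actin-linked scaffold that binds nectins, was higher in LN332 by 0.59 (adjusted p = 0.00317, limma-voom), and by 0.49 without MKα3+ LN332 replicate 4, when it was not called. Its exons overlap Tcte2 on the opposite strand. Nectin1, a binding partner of nectin-3, was lower in LN332, at -0.62 (adjusted p = 0.0373, limma-voom), called in 12 of 16 fits without 1 library (-0.79 to -0.45, not without MKα3- LN332 replicate 1, 2 or 3 or MKα3+ LN332 replicate 1). In the other treatment, Cadm4 in LN332 was at 0.47, and Afdn and Nectin1 in vehicle were at 0.42 and -0.58. None of these passed the threshold (adjusted p = 0.00330, 0.0264 and 0.0599, limma-voom). Nectin4 was not called, with 27.6, 38.4, 36.4 and 49.0 CPM in MKα3- vehicle, MKα3- LN332, MKα3+ vehicle and MKα3+ LN332. Without the 3 libraries highest in leukocyte markers, Nectin3 in vehicle was 0.80 and called, and Afdn (0.49) and Nectin1 (-0.67) in LN332 were not called.

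All 32 regulators of Cd274 or Cd80 expression or protein stability in the list were measured. In vehicle 0 were called higher and 4 lower in MKα3+ cells, and in LN332 0 higher and 3 lower, beside 7.56% and 8.92% of all genes called lower. The list medians were -0.11 and -0.07 (log2), beside 0.01 for all genes. Socs1, a feedback inhibitor of JAK signaling that interferon induces, was lower in MKα3+ cells, at -1.07 in vehicle (SE 0.21, adjusted p = 8.36e-04, limma-voom), from 94.1 ± 15.1 to 45.9 ± 15.0 CPM (SD, n = 4), and at -1.82 in LN332 (adjusted p = 6.41e-06). Relb, a subunit of the NF-kB complex, was lower, at -0.79 in vehicle (adjusted p = 0.00346, limma-voom) and -0.70 in LN332 (adjusted p = 0.00715). Ifngr1, a chain of the interferon-γ receptor, and Cdk5, a kinase, were lower in vehicle, at -0.55 each (adjusted p = 0.0164 and 0.00685, limma-voom), and neither was called without MKα3- vehicle replicate 1 (down to -0.49 and -0.44). Jak2, the kinase of that receptor, was higher in vehicle by 0.41 (adjusted p = 0.0209, limma-voom) and Cmtm6, which stabilizes PD-L1 protein, by 0.43 (adjusted p = 0.00379), both below the 0.5 minimum. Ifngr1 and Cdk5 in LN332 were at -0.49 and -0.46 (adjusted p = 0.0325 and 0.0195, limma-voom), also short of that minimum. Irf1, an interferon-induced transcription factor, had a log2 fold change of -0.07 in vehicle. Without the 3 libraries highest in leukocyte markers, the calls of Relb, Ifngr1 and Cdk5 in vehicle were lost, leaving log2 fold changes of -0.69, -0.51 and -0.52, and that of Socs1 held at -0.85.

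With LN332, 0 genes of the 3 lists were called in either line in the main limma-voom fit, which has no replicate block, or by edgeR. In MKα3+ cells the unadjusted p was under 0.05 for 2 ligands, 2 nectins and 5 regulators, beside 1388 of 14474 genes in all, and DESeq2 called 1, 0 and 2. In MKα3- cells it was under 0.05 for 3, 0 and 3, beside 2023 of all genes, and DESeq2 called 1, 0 and 1. The replicate number was also used as a block shared by all 16 libraries of the fit. For LN332 in MKα3+ cells, Myc, a transcription factor that binds the Cd274 promoter, was then called higher by 0.53 (adjusted p = 0.0102, limma-voom). Socs1 and Tnfrsf14 were called lower, at -0.79 and -0.70 (adjusted p = 0.0183 and 0.0268, limma-voom). Of 17 receptors for these ligands, 5 were measured, and Tigit and Tnfrsf9, chosen after their values were seen, were called between the lines. Tigit, a receptor of CD155 and CD112, had means of 29.8, 34.9, 11.7 and 15.5 CPM in MKα3- vehicle, MKα3- LN332, MKα3+ vehicle and MKα3+ LN332, a log2 fold change of -1.35 in vehicle (adjusted p = 7.77e-06, limma-voom). Tnfrsf9, the receptor of the Tnfsf9 product, was higher in MKα3+ cells by 2.55 in vehicle (adjusted p = 1.76e-06, limma-voom), from 3.08 to 16.9 CPM.

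**Figure D4:**
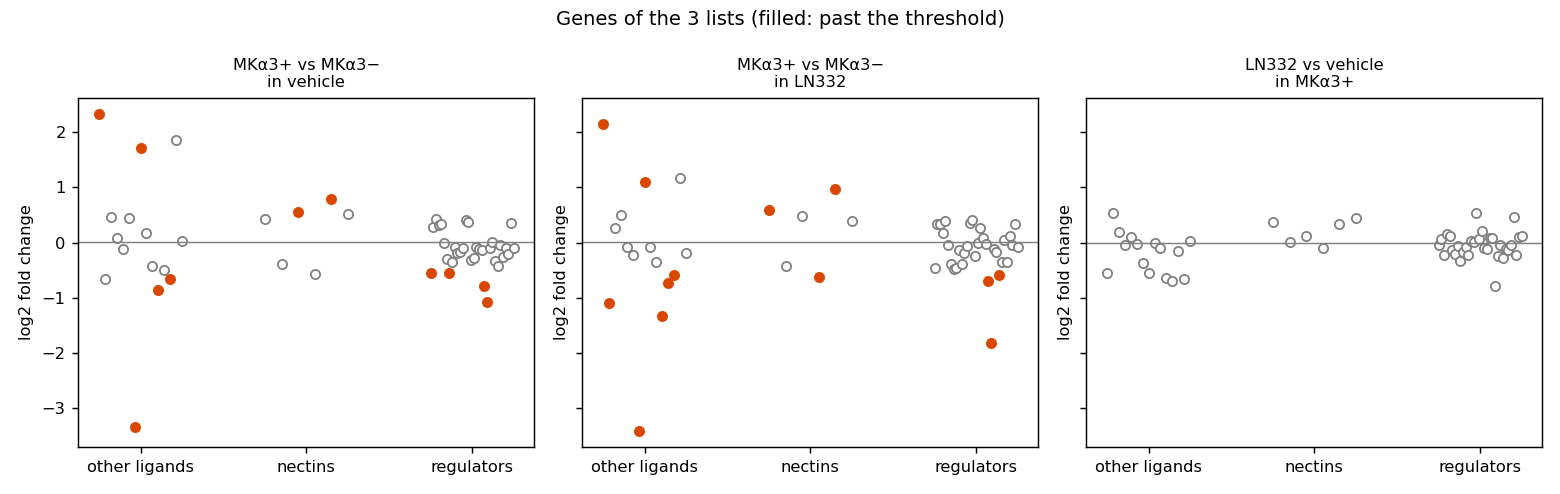
Log2 fold changes (vertical axis) of the measured genes of 3 lists, 15 other ligands, 6 nectins and nectin-like genes and 32 regulators, in 3 comparisons (panels). Each point is a gene, filled points passed the threshold in limma-voom, and the line is the median of all genes. The lowest point is H2-T23 at -3.34 and -3.41 between the lines, and no point is filled for LN332 against vehicle in MKα3+ cells.

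The genes next to these loci were examined for differences between the lines. Beside Cd274, Plgrkt, a plasminogen receptor, differed by -0.65 (adjusted p = 0.00469, limma-voom) in vehicle and -0.82 (adjusted p = 7.92e-04) in LN332. Insl6, an insulin-like gene, differed by -0.74 (adjusted p = 0.0107, limma-voom) and -1.41 (adjusted p = 2.14e-04). Without the 3 libraries highest in leukocyte markers neither was called in vehicle (-0.59 and -0.57). Both lie before Cd274, by 13.5 and 40.8 kb between starts. The nearest tested gene after it, A930007I19Rik, was at 0.23 (adjusted p = 0.755, limma-voom). Insl6 and Ric1 are not the nearest on their side and were chosen after their values were seen, and Ric1, 160 kb after it, was higher by 0.84 (adjusted p = 1.37e-05, limma-voom) in vehicle. Beside Cd80, Adprh (0.02) and Timmdc1 (-0.05) differed little in vehicle. Beside Nectin2, Tomm40, part of the mitochondrial import pore, was at -0.12, and Bcam, a laminin receptor, was lower, at -1.23 (adjusted p = 3.06e-04, limma-voom). Beside Cd276, Insyn1 was higher by 1.18 (adjusted p = 4.19e-04, limma-voom) and Nptn was at -0.07. Beside Pvr, Ceacam19 was lower, at -2.35 (adjusted p = 0.0208, limma-voom), and the nearest tested gene on the other side, Gm10175, started 4043 kb away at 0.10. The medians over tested genes within 10 Mb were -0.01, 0.04, 0.03, -0.12 and -0.10 for Cd80, Cd274, Cd276, Nectin2 and Pvr in vehicle.

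**Figure D5:**
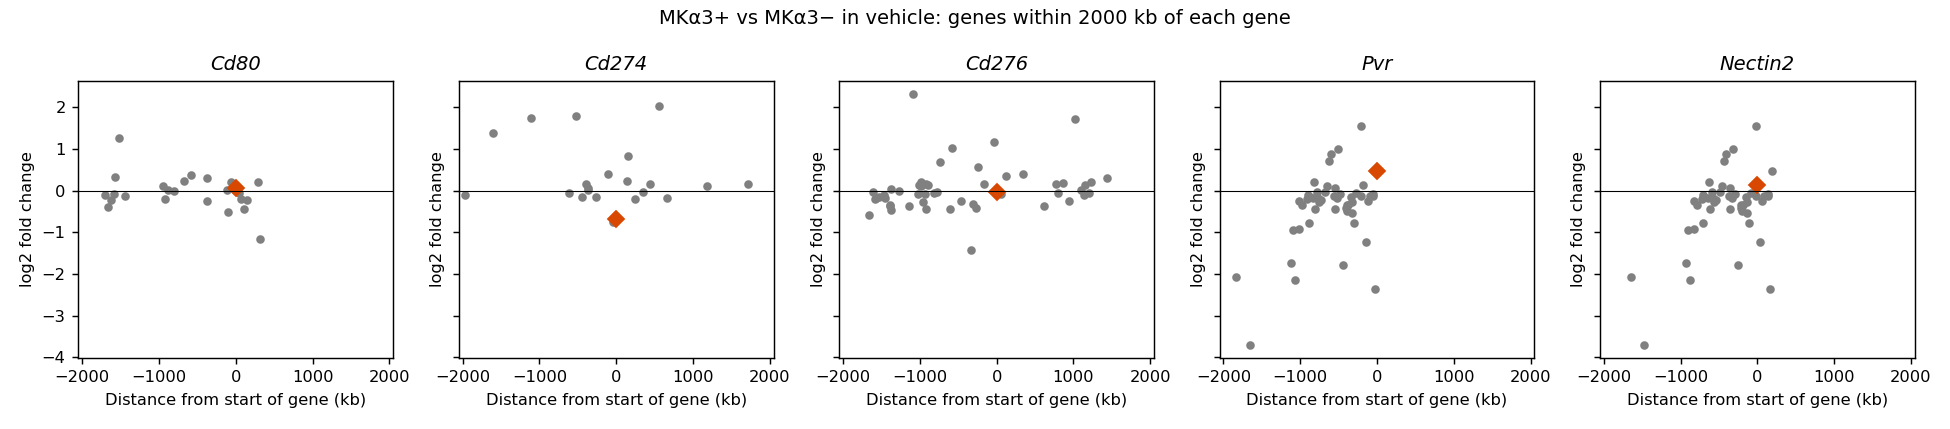
Log2 fold changes of MKα3+ against MKα3- cells in vehicle (vertical axis) for the tested genes within 2000 kb of each of the 5 genes, against the distance between starts in kb (horizontal axes). The diamond is the gene named, and Cd274 at -0.68 lies close to its neighbor Plgrkt at -0.65.

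Among 11801 genes whose mean log2 CPM reached 1, those whose centered levels over the 16 libraries were most like Cd80 were Fbxw7, Map3k5, Wsb1, Slc4a11 and St14, with root mean square differences of 0.22, 0.23, 0.23, 0.24 and 0.24 (log2). Nectin2 ranked 6 (0.24), Pvr 144, Cd276 3571 and Cd274 10947. Fbxw7, a substrate receptor of a ubiquitin ligase, had means of 14.6, 17.8, 17.2 and 23.02 CPM in MKα3- vehicle, MKα3- LN332, MKα3+ vehicle and MKα3+ LN332. St14, the protease matriptase, had means of 622, 640, 670 and 828 CPM in these groups. This order is a description over libraries that share groups.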

How the data were processed

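RNA-seq of 16 libraries was used. According to the methods and the labels, bcl2fastq 2.20 made the reads, and the authors aligned them to mm10 with Rsubread. They then ran featureCounts with its own Entrez gene models, and raw counts of 14474 genes were deposited. The strand setting is not given in the sources used here. The table was already filtered, so the filter of the study's methods (over 0.5 CPM in at least 3 libraries) removed 0 genes.

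Normalization used TMM (edgeR 4.0.16), and tests used limma-voom (limma 3.58.1, R 4.3.3), over 16 libraries with a coefficient for each of 4 groups. CPM are TMM-normalized. The settings varied were DESeq2 1.42.0, its size factors, the quasi-likelihood test of edgeR, library size alone, no filter, at least 10 counts in every library (12795 genes), a replicate block, quality weights, only the 2 groups compared, and each library left out. Replicate numbers come from the labels. In the LN332 comparison in MKα3+ cells, the deviations of same-numbered libraries from their group means correlated at 0.62, 0.474, 0.202 and 0.58, so they were taken as paired. Replicates differed by more than sampling noise (smallest chi-square per degree of freedom 5.51).

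The 5 genes and the lists were chosen with earlier results of these data known. Of each list of ligands, nectins and regulators, up to 4 called genes with the largest change and a mean log2 CPM reaching 1 are named for each comparison, with known partners of the 5 genes, their nearest tested neighbors and the 5 genes most like Cd80. Of the genes this rule gives, 1 is not reported here. On data simulated for LN332 against vehicle in MKα3+ cells, 70% of 200 genes changed by a log2 fold change of 1 were recovered with 4 false calls among 14474 genes. Positions are from GRCm38.p6 (97.2% of genes matched) and promoters from RefSeq.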

Additional observations from a re-analysis of the deposited data

Results flagged for a closer look

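Of 20 groups of 4 libraries (5 genes in 4 groups), 3 held a library far from the rest by Dixon's criterion, and chance flags about 1 in 20. Cd80 was 37.8 CPM in MKα3+ vehicle replicate 2, with the others between 33.8 and 34.0 CPM. Cd276 was 150 CPM in MKα3+ vehicle replicate 1, with the others between 177 and 183 CPM. Nectin2 was 93.9 CPM in MKα3- LN332 replicate 4, with the others between 186 and 203 CPM, and that library also had the lowest Cd80 (28.0 CPM) and Cd274 (60.2 CPM) of its group and the lowest total count of the series.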

How the results depend on the processing

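The log2 fold changes of the 5 genes kept their direction wherever they were called, in all settings run, and the strict filter and DESeq2's size factors left the number of the 5 genes past the threshold as it was. The setting with no filter repeats the main fit, since the table was already filtered. The number of genes called with LN332 depended on the setting. In MKα3+ cells it was 27, but 4 with edgeR, 123 with DESeq2, 3 with library size alone, 218 with the replicate block, 454 with quality weights, 107 with only the 2 groups compared and 0 without the 3 libraries highest in leukocyte markers. In MKα3- cells it was 44, but 165 with DESeq2, 74 with library size alone, 259 with the block, 123 with weights, and 1 with only the 2 groups or without those 3 libraries. Leaving out each library in turn gave 0 to 47 genes in MKα3+ cells, with 0 when replicate 2 or 4 of MKα3+ vehicle, or replicate 3 or 4 of MKα3+ LN332, was omitted, and 1 to 150 in MKα3- cells. Library size alone moved the median of all genes with LN332 to -0.08 (log2) in both lines.

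For the lists with LN332 in MKα3+ cells, DESeq2 called 1 ligand and 2 regulators, the replicate block 1 and 2, quality weights 2 and 2, and the 2 groups alone 1 regulator, against 0. In MKα3- cells the block called 1 ligand (Cd200) and 1 nectin (Nectin4), DESeq2 1 ligand and 1 regulator, and weights 1 regulator. In vehicle between the lines, the strict filter left 3 ligands of 5, and removing the 3 libraries left 1 regulator of 4. Over the fits with 1 library omitted, the called ligands numbered 4 to 7 in vehicle, 5 to 7 in LN332 and 0 to 1 with LN332 in MKα3- cells, the nectins 1 to 3 and 2 to 4, and the regulators 2 to 5 and 3 to 7. The cause of these shifts was not tested.

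In the other 3 comparisons the same-numbered libraries did not all correlate over 0.1, and the block result is given here for them. Over all 24 same-numbered pairs 18 correlated over 0.1, and 13 of 16 libraries correlated best with their own number. The block left the number of the 5 genes past the threshold as it was in all comparisons. Between the lines in vehicle it added Nectin1 to the genes called lower, at -0.58 (adjusted p = 0.00977, limma-voom). Depth limits Icosl and Btn2a2, under 3 CPM in every group mean.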
